A study of Mus musculus with 12 samples.

Results

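The genes described here are 7 matrix metalloproteinases (Mmp2, Mmp3, Mmp8, Mmp9, Mmp10, Mmp13 and Mmp14) and 3 tissue inhibitors of metalloproteinases (Timp1, Timp2 and Timp3), 10 of the 24809 genes with a symbol in the count table. They were found by the symbols of their RefSeq transcripts. The set of 10 was chosen on their levels and changes in these same 4 groups, so those values are given as a description and without p-values, and no support is drawn from them. The 10 genes had 12 listed transcripts, and 9 of the genes had at least 1 count. Timp1, listed with 3 transcripts, had 0 counts in all 12 libraries.

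RNA-seq was performed on mouse female germline stem cells (FGSCs, strain C57BL/6, past passage 20), in 4 groups of 3 libraries. The KO group was 1 FGSC clone in which Stella (listed as Dppa3), a maternal effect gene, had been knocked out with CRISPR/Cas9 delivered by lentivirus, and KO-con was its control, not described further in the sources used here. The Over group carried a lentiviral Stella transgene under puromycin selection, and Over-con carried the empty lentiviral vector. All 4 groups had been grown on mitotically inactivated STO cells, a mouse embryonic fibroblast line, with leukemia inhibitory factor, epidermal growth factor, basic fibroblast growth factor and glial cell line-derived neurotrophic factor. Nothing in the sources says whether the 3 libraries of a group came from separate cultures, so errors and p-values measure the spread between these libraries, which may be technical.

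Matrix metalloproteinases are zinc proteases that cleave collagens, laminins, proteoglycans and other proteins outside the cell. Most are secreted as inactive proenzymes that other proteases activate, whereas Mmp14 sits in the cell membrane. TIMPs bind the active site of these enzymes and block it, and Timp2 also takes part in the activation of pro-Mmp2 on the cell surface by Mmp14. In the ovary both families are known for the remodelling of matrix around growing and ovulating follicles.

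Mmp13, Mmp3, Mmp10 and Mmp8 are neighbours. In mm9, the genome build of the deposited counts, they lie on the plus strand of chromosome 9 at chr9:7272514-7283333, chr9:7445822-7455972, chr9:7502352-7510238 and chr9:7558429-7568486, a span of 295973 bases within a cluster of 10 metalloproteinase genes. These 4 genes had the most negative log2 fold changes of the members in KO against KO-con, and their promoters are shown for that reason. Each stretch holds the 120 bases before the start of the gene, 5′ to 3′, from the RefSeq promoter table of build GRCm38.p6. Capitals mark the motif TGAGTCA (an AP-1 site, searched on both strands and found on the minus strand in Mmp13) and the motif TATAAA, known as the TATA box.
Mmp3, chr9:7445702-7445821: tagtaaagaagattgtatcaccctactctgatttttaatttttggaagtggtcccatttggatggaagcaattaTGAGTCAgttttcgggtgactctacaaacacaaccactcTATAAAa
Mmp10, chr9:7502222-7502341: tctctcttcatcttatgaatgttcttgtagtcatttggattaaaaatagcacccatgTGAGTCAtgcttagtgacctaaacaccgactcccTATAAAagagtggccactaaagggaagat
Mmp13, chr9:7272394-7272513: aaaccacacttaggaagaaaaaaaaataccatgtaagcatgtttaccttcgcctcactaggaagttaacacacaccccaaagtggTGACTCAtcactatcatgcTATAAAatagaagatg
Mmp8, chr9:7558309-7558428: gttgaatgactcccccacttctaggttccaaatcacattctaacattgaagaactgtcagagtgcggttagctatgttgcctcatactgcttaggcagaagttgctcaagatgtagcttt
Mmp3, Mmp10 and Mmp13 each held 1 AP-1 motif, 46, 63 and 35 bases before the start, followed by a TATA box. The Mmp8 stretch held neither motif, though 1 TATAAA on the minus strand lay across the start of the gene. Over whole windows of 250 bases before to 50 bases after the start, 5.2% of 32851 RefSeq windows held the AP-1 motif and 13.6% held TATAAA. The windows of Mmp14, Timp1, Timp2 and Timp3 held neither, and Mmp2 and Mmp9 had no entry. Timp2 and Timp3 had 25 and 24 CG dinucleotides per window and Mmp14 had 10, against 1 in Mmp3, 1 in Mmp13, 2 in Mmp10 and 4 in Mmp8, where all windows had a median of 7 and quartiles of 3 and 20. A motif match describes these letters, and no binding was measured here.

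The other members lie apart in mm9. Mmp2 is at chr8:95351227-95377316, Mmp9 at chr2:164766280-164781350, Mmp14 at chr14:55050441-55060095, Timp1 at chrX:20447292-20451861, Timp2 on the minus strand at chr11:118162383-118217054 and Timp3 at chr10:85763117-85812251. Timp3 lies within Syn3 on the opposite strand, as Timp1 does within Syn1, and 1733 of the 8144 exon bases of Timp3 overlap exons of Syn3. The library kit kept strand but the strand setting of the counting is not given in the sources used here. Syn3 had 19 to 46 counts per library against 499 to 1504 for Timp3. Mmp3 and Mmp10 share sequence, since 206 of the 1691 stretches of 30 bases in the Mmp10 transcript (12.2%) also occur in another gene, and how the counting treated such shared reads is not stated.

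Library totals lay between 5611846 and 12866545 counts, and 3 counts, taken as the smallest amount shown, corresponded to 0.233 to 0.535 CPM, which are counts scaled to a common library size. Floors of this kind cover counting error only. Dppa3 had 0 counts in all KO, KO-con and Over-con libraries and 28.4 to 32.2 CPM in the Over libraries, so these counts check the label of Over and cannot check that of KO. Of 13 germ cell markers, 7 were at 3 or fewer counts in every library, and Ddx4 and Gfra1 were at 0. Low counts need not mean absence, since Gapdh was also close to the floor. The germ cell sum, led by Ifitm3, was 80.2 to 122 CPM in KO and 116 to 141 CPM in KO-con. It was 149 to 163 CPM in Over and 153 to 168 CPM in Over-con. These sums include Dppa3 itself, which added 28.4 to 32.2 CPM in Over and 0 in Over-con. They therefore do not compare the remaining germ cell markers between Over and Over-con. Fibroblast markers were abundant: 14 of 17 exceeded 3 counts in at least 1 library, led by Col1a2, Col1a1 and Col6a1, and their summed level was 1366 to 1925 CPM in KO, 1492 to 1720 CPM in KO-con, 1835 to 1908 CPM in Over and 2137 to 2317 CPM in Over-con. Feeder and germline RNA cannot be told apart in these bulk libraries, and neither can fewer cells of a type and less RNA per cell.

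Levels of different genes were compared per length, as CPM per kilobase (kb) of the longest annotated transcript. Among the members with counts, Timp2 was the highest in all 12 libraries, with a mean of 333 ± 40.3 CPM per kb (SD, n = 12). Mmp14 followed at 195 ± 14.8 and Mmp2, the gelatinase that Mmp14 activates, at 82.9 ± 11.0 CPM per kb. These 3 genes kept this order in every library. Mmp3 (stromelysin 1) came next at 26.4 ± 9.40 and Timp3, an inhibitor that binds the extracellular matrix, at 20.5 ± 5.27 CPM per kb. Mmp3 exceeded Timp3 in 9 of 12 libraries, and the order was the opposite in the 3 KO libraries. Mmp13 (collagenase 3) had 3.11 ± 0.481 and Mmp9 (gelatinase B) 2.12 ± 0.403 CPM per kb, with Mmp13 above Mmp9 in 11 of 12 libraries. Mmp8 (neutrophil collagenase) at 1.2 ± 0.93 and Mmp10 (stromelysin 2) at 1.02 ± 0.50 CPM per kb did not separate, with Mmp8 the higher in 6 of 12 libraries.

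**Figure D1:**
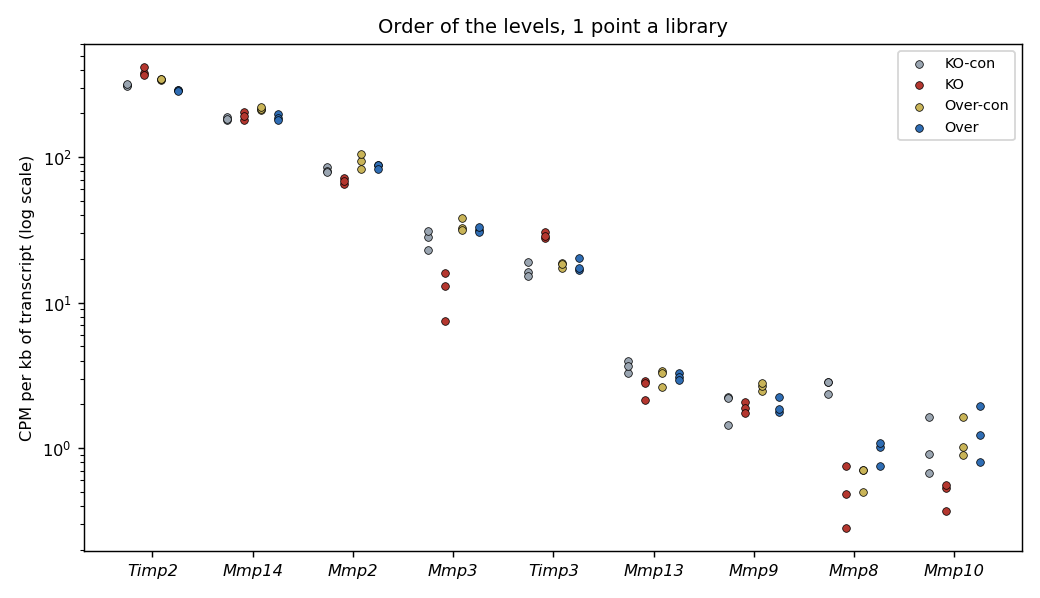
Level of the 9 members with counts in each of the 12 libraries, in CPM per kb of transcript on a log scale, ordered by the mean over all libraries and coloured by group. Timp2, Mmp14 and Mmp2 lie above the other members in every library, and only Mmp3 and Timp3 exchange places in the KO libraries among the 5 most abundant.

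Mmp14 and Mmp2 together made up 86.7% to 95.5% of the summed level of the 7 metalloproteinases per kb. Timp2 made up 92.5% to 95.4% of the sum of Timp2 and Timp3. Timp1, listed at 0 counts, added nothing to any TIMP sum given here, and its true level is not known. The metalloproteinase side was therefore carried by a membrane protease and a gelatinase, while Mmp3 supplied 2.77% to 5.39% of that sum in KO, 7.86% to 10.3% in KO-con, 9.64% to 11.0% in Over and 8.66% to 11.1% in Over-con.

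The comparison of KO with KO-con sets 1 knockout clone beside its control, so clone and knockout cannot be told apart. Dppa3 was at 0 counts in both groups. A transcript was called when its Benjamini-Hochberg adjusted p from the quasi-likelihood test of edgeR, fitted on the whole table, was under 0.05. Of the 9457 transcripts tested, 11.8% were called. Of the 9 members tested, 5 were called: Timp3 and Timp2 were higher in KO, and Mmp8, Mmp3 and Mmp2 were lower. With an absolute log2 fold change over 1 required as well, 1.70% of transcripts and 2 members (Mmp8 and Mmp3) remained. The 3 libraries of KO lay entirely above or below those of KO-con for 30.5% of all transcripts and for 7 of 9 members, the exceptions being Mmp9 and Mmp14. The count of 5 was 3 (Mmp3, Mmp8 and Timp3) without KO-con replicate 1 or without KO-con replicate 2. Because the members were chosen with these changes known, nothing is read from the counts of members.

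The median log2 fold change was -0.47 over the 7 metalloproteinases, 1 of them above 0 and 6 below, and 0.54 over the 2 TIMPs with counts, against 0.01 over all transcripts tested.

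Among the stromelysins, Mmp3 had 23.4, 28.9 and 13.5 CPM in KO and 50.6, 41.4 and 56.3 CPM in KO-con. Over had 56.4, 55.2 and 59.6 CPM, and Over-con 58.2, 68.8 and 57.1 CPM. All KO libraries lay below all 9 others, and KO replicate 3 was the lowest of the 12. The means were 22.0 ± 7.80 CPM for KO and 49.4 ± 7.51 CPM for KO-con (SD, n = 3 each), a log2 fold change of -1.16 (SE 0.19), called. The same library, KO replicate 3, had the lowest summed fibroblast markers, and without it the log2 fold change of Mmp3 was still called, with a range of -1.43 to -0.90 over the 6 fits that each left out 1 library. Per 1000 CPM of summed fibroblast markers, Mmp3 was 9.91 to 15.03 in KO, 27.8 to 32.7 in KO-con, 28.9 to 32.4 in Over and 24.7 to 29.7 in Over-con, so that KO was again apart from the other groups.

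Mmp10, the neighbour that shares sequence with Mmp3, was close to the floor. It had 0.923, 0.956 and 0.636 CPM in KO and 2.80, 1.16 and 1.58 CPM in KO-con, resting on 7 to 44 counts over all libraries. The KO libraries were the lowest 3 of the 12, and the log2 fold change of -1.12 (SE 0.42) was not called.

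Among the collagenases, Mmp8 had 1.85, 0.695 and 1.18 CPM in KO and 6.94, 6.99 and 5.82 CPM in KO-con. In Over it had 2.50, 1.84 and 2.68 CPM, and in Over-con 1.74, 1.23 and 1.75 CPM. The 3 KO-con libraries stood above all 9 others, which lay between 0.695 and 2.68 CPM. The log2 fold change in KO was -2.45 (SE 0.29), called, and it was -0.42 and not called when the Over-con libraries took the place of KO-con. Mmp8 was also called between the 2 controls, with a log2 fold change of 2.02 (SE 0.25) in KO-con relative to Over-con, so its difference in KO turned on which control was used. Mmp8 rested on 7 to 78 counts per library.

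Mmp8 is a known product of neutrophils, and neutrophil markers were checked beside it. Of 10 such markers, 7 were at 3 or fewer counts in every library, S100a9 and Csf3r at 0. The summed level was 158 to 168 CPM in KO, 175 to 204 CPM in KO-con, 267 to 272 CPM in Over and 296 to 345 CPM in Over-con. It rested almost wholly on 1 gene, Cxcr2, with 1442 to 3518 counts per library, against 1 to 15 for Camp, the next marker. The summed level of 12 mast cell markers, led by Cpa3, was 1255 to 1344 CPM in KO and 479 to 534 CPM in KO-con. That sum rested mostly on Cpa3, with 10054, 13119 and 13380 counts in KO and 4110, 4055 and 3424 in KO-con. Il1rl1, the next marker, had 630, 852 and 909 counts in KO and 639, 832 and 649 in KO-con. Of 6 transcripts of the list tested, 3 were called higher in KO and 0 lower. Kit, Fcer1a, Ms4a2, Tpsb2, Tpsab1 and Mcpt4 were at 3 or fewer counts throughout. For the mast cell markers, Over and Over-con had 775 to 801 and 909 to 1018 CPM. Macrophage markers summed to 232 to 270 CPM in KO, 183 to 203 CPM in KO-con, 232 to 239 CPM in Over and 218 to 240 CPM in Over-con, with Adgre1, Itgam, Cx3cr1 and C1qa at 3 or fewer counts. The part of these cell types in the levels of the members was not tested.

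Mmp13 had 7.73, 7.56 and 5.73 CPM in KO and 10.6, 8.79 and 9.83 CPM in KO-con. The groups did not overlap, and the log2 fold change of -0.47 (SE 0.17) was not called. Over, at 7.82 to 8.80 CPM, and Over-con, at 7.0 to 9.04 CPM, both overlapped KO-con.

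Among the gelatinases, Mmp2 had 198, 219 and 209 CPM in KO and 259, 246 and 242 CPM in KO-con. KO was below every library of the other groups, whose lowest value was 242 CPM. The log2 fold change of -0.25 (SE 0.07), a fold of 0.844, was called. The call was lost on scaling by library totals (-0.21), and without KO-con replicate 1 (-0.22), 2 (-0.25) or 3 (-0.27). Per 1000 CPM of fibroblast markers, Mmp2 overlapped between KO (114 to 153) and KO-con (140 to 165). Mmp9 had 6.58, 5.99 and 5.54 CPM in KO and 7.15, 4.57 and 7.04 CPM in KO-con, with overlapping groups and a log2 fold change of -0.03 (SE 0.21).

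Mmp14, the membrane protease, had 464, 531 and 496 CPM in KO and 494, 469 and 477 CPM in KO-con. The KO libraries spanned those of KO-con, and the log2 fold change was 0.06 (SE 0.07). The ratio of Mmp2 to Mmp14, both per kb, was 0.353 to 0.363 in KO and 0.433 to 0.449 in KO-con, without overlap.

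Among the inhibitors, Timp3 had 144, 131 and 135 CPM in KO and 90.6, 76.7 and 72.3 CPM in KO-con. Over had 79.4, 82.2 and 95.2 CPM and Over-con 81.8, 88.0 and 87.0 CPM. The 3 KO libraries stood above all 9 others, which did not exceed 95.2 CPM. The log2 fold change was 0.78 (SE 0.09), a fold of 1.72, called, and it was called also against Over-con (0.68) and without any 1 library (0.72 to 0.88). Syn3, the gene on the other strand, had 2.35 to 2.82 CPM in KO and 1.97 to 3.03 CPM in KO-con, with a log2 fold change of 0.15 (SE 0.29, edgeR adjusted p = 0.807). Per 1000 CPM of fibroblast markers, Timp3 was 67.9 to 98.7 in KO, 42.1 to 57.2 in KO-con, 43.1 to 51.9 in Over and 37.7 to 38.3 in Over-con.

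Timp2 had 1404, 1546 and 1370 CPM in KO and 1168, 1153 and 1183 CPM in KO-con. KO was above every other library, and no library of the other groups exceeded 1284 CPM. The log2 fold change of 0.31 (SE 0.07), a fold of 1.24, was called. It was not called against Over-con (0.18), nor without KO replicate 2 (0.25), KO-con replicate 1 (0.31) or KO-con replicate 2 (0.30). Per 1000 CPM of fibroblast markers, Timp2 was 803 to 1003 in KO and 688 to 773 in KO-con, without overlap.

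**Figure D2:**
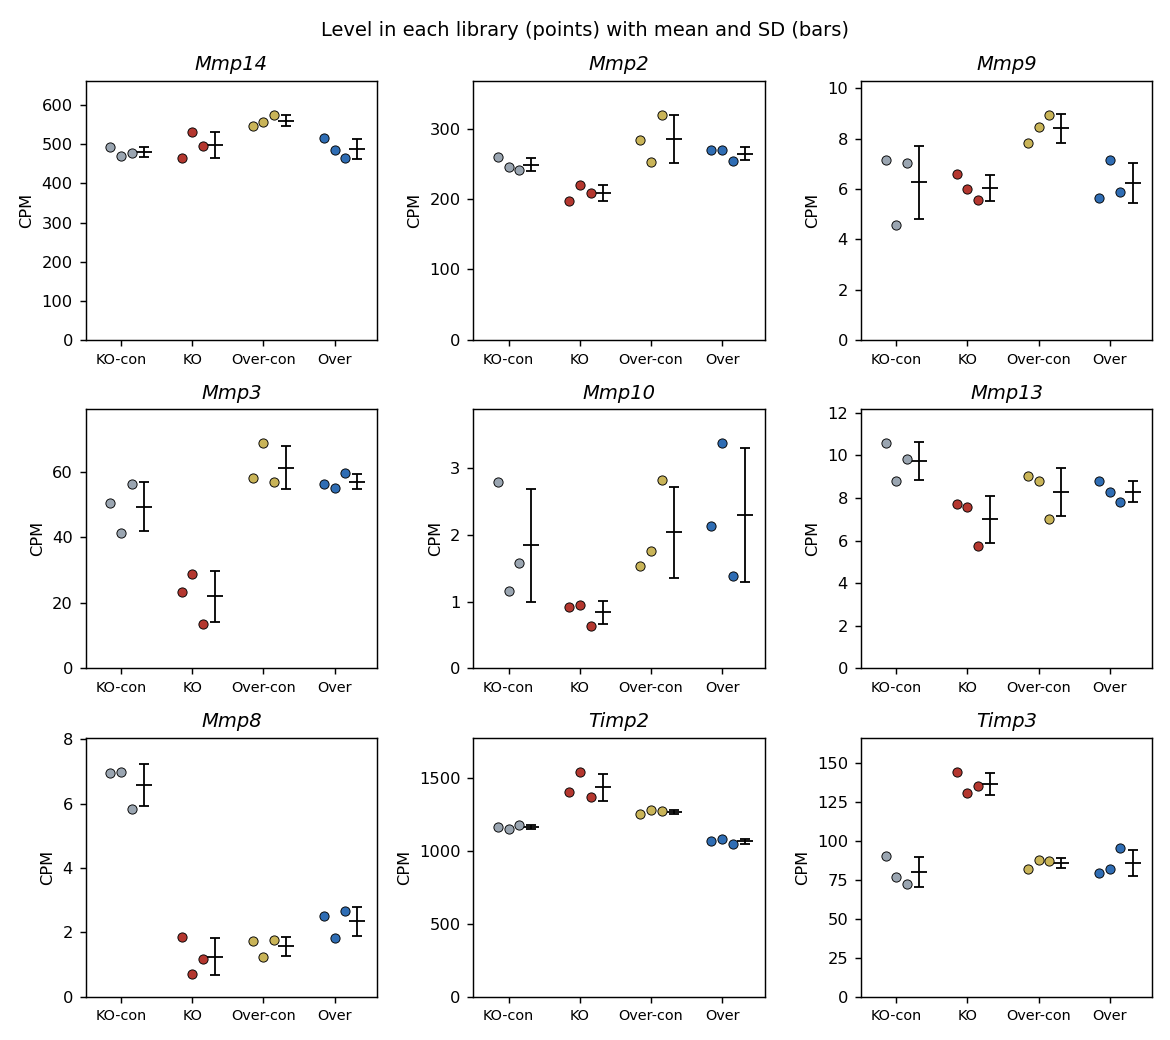
Level in CPM of the 9 members with counts, 1 panel each, with 1 point per library by group and the mean and SD of the 3 libraries drawn beside them. KO lies apart from the other 3 groups for Mmp3 (13.5 to 28.9 CPM), Timp3 (131 to 144 CPM), Mmp2 and Timp2, whereas for Mmp8 it is KO-con that lies apart (5.82 to 6.99 CPM).

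In KO the metalloproteinase sum was 278 ± 18.4 CPM per kb and in KO-con 304 ± 10.6 CPM per kb (means with SD over 3 libraries), with overlapping libraries, while the TIMP sum was 417 ± 24.3 in KO against 332 ± 4.08 for KO-con, without overlap. The ratio of the TIMP sum to the metalloproteinase sum was 1.46 to 1.55 in KO and 1.06 to 1.12 in KO-con. It was 0.938 to 1.00 in Over and 0.987 to 1.06 in Over-con, so the KO libraries had the 3 highest ratios. The ratio of Timp3 to Mmp3 was 1.72 to 3.79 in KO and 0.487 to 0.705 in the other 9 libraries. The TIMP sums hold Timp2 and Timp3 only, since Timp1 was listed without counts. These ratios concern transcripts of the members and not protein or enzyme activity.

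**Figure D3:**
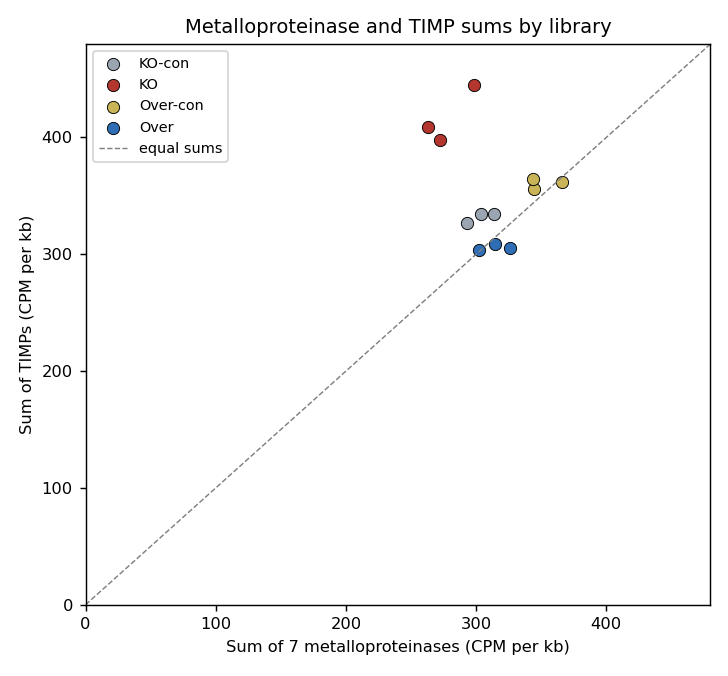
Sum of the TIMPs with counts (Timp2 and Timp3) against the sum of the 7 metalloproteinases, both in CPM per kb, with 1 point per library coloured by group and a dashed line where the sums are equal. The KO libraries lie highest above the line, at ratios of 1.46 to 1.55, and the Over libraries lie near it, at 0.938 to 1.00.

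**Figure D4:**
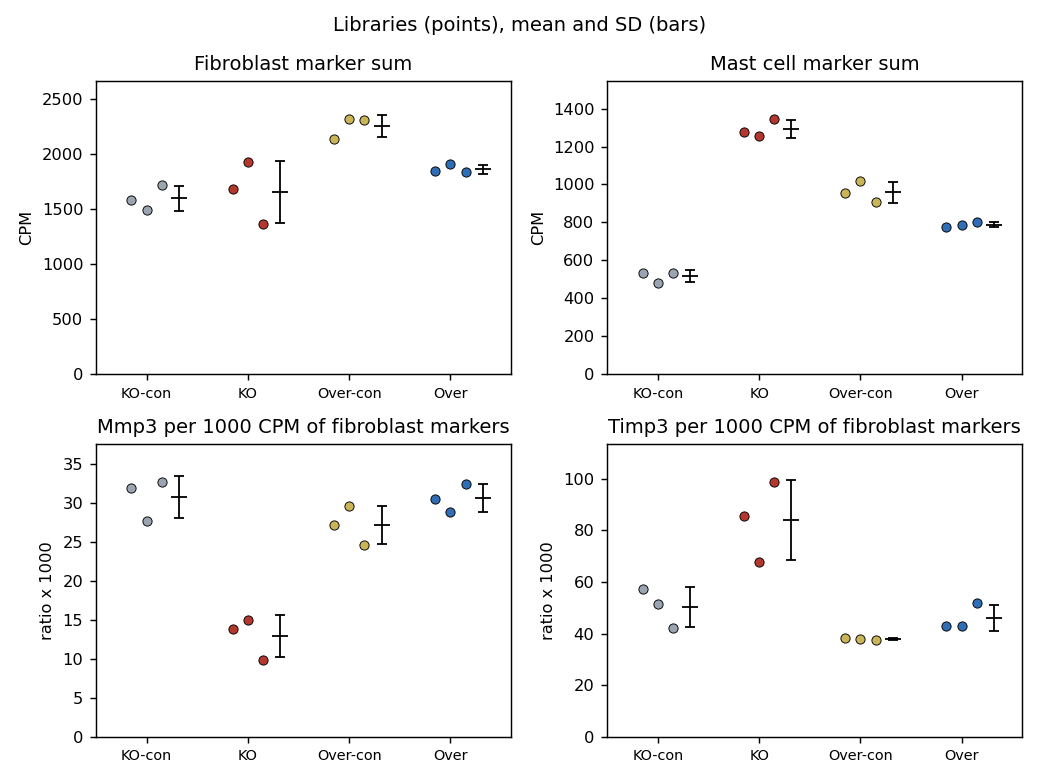
Summed fibroblast and mast cell markers in CPM (upper panels) and Mmp3 and Timp3 per 1000 CPM of fibroblast markers (lower panels), with 1 point per library and the mean and SD of the 3 libraries of a group. KO is the lowest group for Mmp3 and the highest for Timp3 on this scale too, and its 3 fibroblast sums spread over 1366 to 1925 CPM. The mast cell sum rests mostly on Cpa3.

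The comparison of Over with Over-con addresses what differed when Stella was overexpressed. Of the 9401 transcripts tested, 1.65% were called, and 1 of 9 members was called, Timp2, which was lower in Over. With an absolute log2 fold change over 1 as well, 0.170% of transcripts and 0 members were called. The libraries of Over lay apart from those of Over-con for 19.3% of transcripts and for 4 of 9 members, Timp2, Mmp14, Mmp9 and Mmp8. The median log2 fold change of the members was -0.09, against -0.00 over all transcripts.

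Timp2 had 1071, 1082 and 1050 CPM in Over and 1257, 1284 and 1273 CPM in Over-con, and its log2 fold change was -0.24 (SE 0.06). All Over libraries were below all Over-con libraries and also below all KO-con libraries. The call was lost on scaling by library totals (-0.23), against KO-con (-0.12), and without Over replicate 1 (-0.24), 2 (-0.25) or 3 (-0.23) or Over-con replicate 1 (-0.25) or 2 (-0.23).

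Mmp14, the protease with which Timp2 acts at the cell surface, had 515, 486 and 465 CPM in Over and 547, 558 and 575 CPM in Over-con, and its log2 fold change of -0.19 (SE 0.06) was not called. Mmp9 had 5.65, 7.13 and 5.89 CPM in Over and 7.80, 8.46 and 8.94 CPM in Over-con, without overlap, with a log2 fold change of -0.41 (SE 0.17), not called. Mmp8 had a log2 fold change of 0.52 (SE 0.31), not called, in groups that did not overlap. Fibroblast markers summed to less in Over than in Over-con, also without overlap. Per 1000 CPM of these markers Timp2 was 567 to 581 in Over and 551 to 588 in Over-con, an overlap that the CPM values did not show. Mmp14 (253 to 279 against 241 to 256) and Mmp9 (3.07 to 3.74 against 3.65 to 3.87) overlapped on that scale as well, and Mmp8 did not.

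In CPM, the other members overlapped between Over and Over-con. Per 1000 CPM of fibroblast markers, Timp3 was 43.1 to 51.9 in Over and 37.7 to 38.3 in Over-con, without overlap. On that scale Mmp13 did not overlap (4.26 to 4.78 against 3.03 to 4.23), and Mmp2 nearly touched (138.394 to 146 against 109 to 138.392). Mmp3 and Mmp10 overlapped on both scales. Mmp3 had a log2 fold change of -0.09 (SE 0.09), Timp3 of 0.01 (SE 0.08) and Mmp13 of 0.02 (SE 0.16). Mmp2, at 269, 270 and 254 CPM in Over and 284, 252 and 320 CPM in Over-con, had -0.11 (SE 0.08). Mmp10 had 2.13, 3.38 and 1.39 CPM in Over and 1.54, 1.76 and 2.82 CPM in Over-con, and its log2 fold change was 0.19 (SE 0.36).

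**Figure D5:**
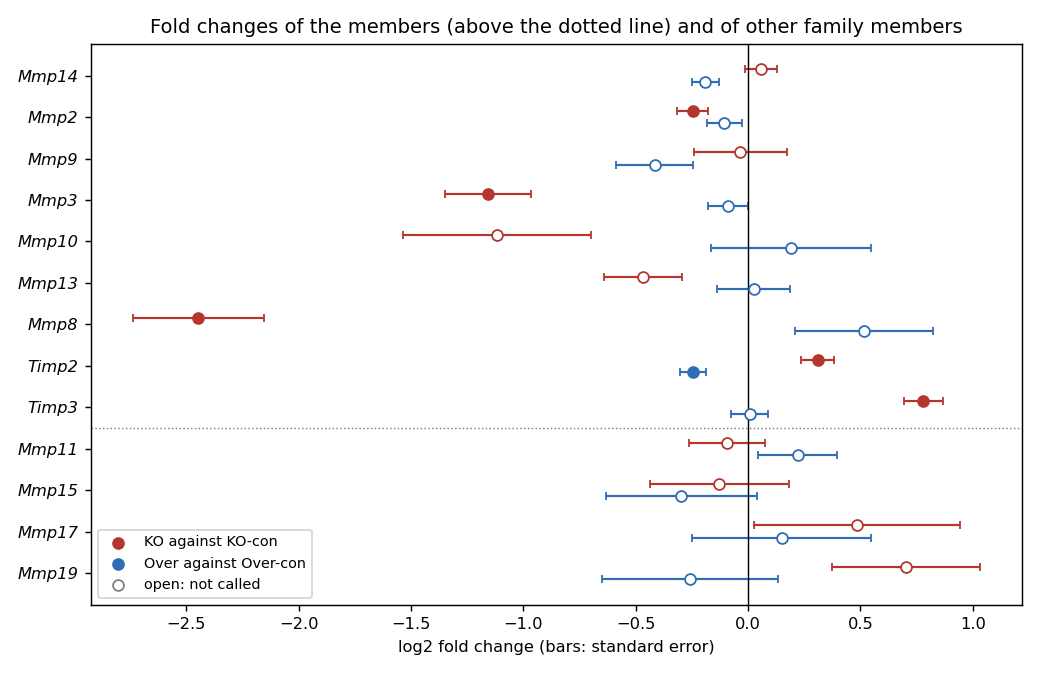
Log2 fold change with its standard error of the 9 members with counts and, below the dotted line, of 4 other metalloproteinases, in KO against KO-con and in Over against Over-con, with filled points for called transcripts. Mmp8 (-2.45), Mmp3 (-1.16), Mmp2, Timp2 and Timp3 (0.78) are filled in KO, and Timp2 (-0.24) alone in Over.

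The log2 fold changes of KO and of Over, each against its own control and called effects here, were set against each other as a difference. Of 9903 transcripts, 8.64% were called. Of the 9 members, 4 were called. The difference, KO effect minus Over effect, was 0.55 (SE 0.08) for Timp2, which was higher in KO and lower in Over. It was 0.77 (SE 0.12) for Timp3, -1.07 (SE 0.23) for Mmp3 and -2.96 (SE 0.42) for Mmp8. The same 4 members were called whichever of the 12 libraries was left out. Leaving out single libraries cannot remove a difference between the controls. Mmp8 had a log2 fold change of 2.02 in KO-con relative to Over-con. It was not tested where at least 10 counts in every library were required. For Timp2, the call was lost against the other control both in KO (0.18) and in Over (-0.12).

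The controls differed from each other for 16.3% of 9321 transcripts. Of the members, 2 were called, Mmp8, which was higher in KO-con, and Mmp14, which was lower, at -0.22 (SE 0.07). The Mmp14 call was lost without KO-con replicate 1 (-0.23), 2 (-0.20) or 3 (-0.21) and without Over-con replicate 1 (-0.24), and the count of called members was then 1, except without KO-con replicate 3, when Mmp3 was called in its place. Timp2 and Timp3 had differences of -0.12 (SE 0.07) and -0.09 (SE 0.09) between the controls and were not called. In CPM, every KO-con library lay below every Over-con library for Timp2, whereas the controls overlapped for Timp3.

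Other genes of the family were few. Of 17 further metalloproteinases and TIMPs, 4 could be tested in KO and 0 were called by edgeR, 1 of them (Mmp19) having an unadjusted p under 0.05, and DESeq2 called 0 of the 3 it tested. Mmp19 had 2.31 to 3.0 CPM in KO and 0.932 to 2.06 CPM in KO-con, with a log2 fold change of 0.70 (SE 0.33, edgeR adjusted p = 0.194). Mmp11 (stromelysin 3) had -0.10 (SE 0.17), and the membrane-type enzymes Mmp15 and Mmp17 had -0.13 (SE 0.31) and 0.49 (SE 0.46). In Over 5 could be tested and edgeR called 0, with 1 (Mmp1b) at an unadjusted p under 0.05, and DESeq2 called 0 of 2. Mmp1b, which lies in the chromosome 9 cluster, had 0.741 to 1.38 CPM in Over and 1.85 to 2.62 CPM in Over-con, with a log2 fold change of -1.05 (SE 0.34, edgeR adjusted p = 0.166). Between the controls, edgeR called Mmp1b lower in KO-con than in Over-con, the 1 call among 5 tested, and DESeq2 called 0 of 4. Zero counts were more frequent in genes listed with several transcripts. Of 11 family genes with 2 or more listed transcripts, 6 (54.5%) had 0 counts, against 1 of 16 (6.25%) with a single one, and over all genes the shares were 31.2% and 25.1%. Gapdh, which every cell uses, is listed with 2 transcripts and had 23 counts over all 12 libraries. Timp1 can therefore be described only as listed at 0.

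Genes that act on or beside the members were counted from lists drawn up by role, with earlier results of these data known. The counts are therefore a description. In KO, 11.8% of all transcripts tested were called, 551 higher and 564 lower. In these lists 12 of 47 were called, 3 higher and 9 lower, and the number was 7 without KO-con replicate 1. Of 13 transcripts of activators and surface regulators, 2 rose and 2 fell. Plau, the urokinase that starts plasmin-dependent activation of pro-metalloproteinases, rose with a log2 fold change of 0.70 (SE 0.10, edgeR adjusted p = 0.000402), from 54.2 to 65.7 CPM in KO-con to 85.7 to 110 CPM in KO. Its receptor Plaur fell, at -0.84 (SE 0.11, edgeR adjusted p = 0.000159). Lcn2 rose by 0.84 (SE 0.10, edgeR adjusted p = 4.78e-05), with 167 to 199 CPM in KO and 86.4 to 116 CPM in KO-con. KO-con stood apart for Lcn2. Over had 181 to 209 CPM, which overlapped KO, and Over-con had 241 to 287 CPM, above every KO library. The controls differed by -1.38 (SE 0.10, edgeR adjusted p = 2.43e-09).

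Of 9 transcripts of AP-1 and ETS factors, the proteins known to act on metalloproteinase promoters, 0 rose and 3 fell in KO. Junb had 67.3 to 75.6 CPM in KO and 108 to 122 CPM in KO-con, a log2 fold change of -0.65 (SE 0.08, edgeR adjusted p = 6.73e-05). Jun and Fosl2 had -0.32 (SE 0.08, edgeR adjusted p = 0.0123) and -0.31 (SE 0.06, edgeR adjusted p = 0.0046). Over all 9 transcripts the median was -0.25, against 0.01 over all transcripts tested. Of 8 transcripts of ADAM and ADAMTS proteases, 0 rose and 2 fell, Adamts4 at -0.35 (SE 0.10, edgeR adjusted p = 0.0284) and Adamts1 at -0.31 (SE 0.09, edgeR adjusted p = 0.0363). Both are proteases that cleave proteoglycans. DESeq2 called 1 of the 7 transcripts of this list that it tested.

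Of 13 transcripts of matrix substrates, 1 rose and 2 fell in KO. The laminin chain gene Lama5 fell from 5453 to 6392 CPM in KO-con to 3609 to 3905 CPM in KO (log2 fold change -0.64, SE 0.08, edgeR adjusted p = 7.76e-05), and Over and Over-con, at 3784 to 4002 and 3730 to 4856 CPM, lay with KO. Dcn, which encodes the proteoglycan decorin and was also among the fibroblast markers, fell by 0.41 on the log2 scale (SE 0.11, edgeR adjusted p = 0.0224).

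In Over, 1.65% of all transcripts tested were called, 72 higher and 83 lower. In these lists 4 of 48 transcripts were called, and all 4 were lower. They were Plaur at -0.42 (SE 0.08, edgeR adjusted p = 0.0152), Lcn2 at -0.39 (SE 0.08, edgeR adjusted p = 0.0166), the laminin chain gene Lamb1 at -0.28 (SE 0.06, edgeR adjusted p = 0.0314) and the basement membrane gene Nid1 at -0.27 (SE 0.06, edgeR adjusted p = 0.0363). All 13 tested transcripts of matrix substrates had log2 fold changes below 0, with a median of -0.25, where 4724 of all 9401 transcripts were below 0. Of these 13, edgeR called 2, with 10 at an unadjusted p under 0.05, and DESeq2 called 6. In that list 4 of the genes (Col1a1, Col1a2, Col3a1 and Dcn) were also fibroblast markers, whose sum was lower in Over as well. Of the ADAM and ADAMTS proteases, edgeR called 0 of 8 transcripts, with 2 at an unadjusted p under 0.05, and DESeq2 called 0 of 7. Of the AP-1 and ETS factors, edgeR called 0 of 9, with 1 at an unadjusted p under 0.05, and DESeq2 called 0 of 9. The count of 4 rested on single libraries, since it was 0 without any one of Over replicates 1, 2 and 3 or Over-con replicate 1, and 10 without Over-con replicate 3.

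The transcripts whose log2 CPM followed each member most closely over the 12 libraries were ranked among 9903 transcripts by Pearson's r. The 12 points share 4 groups, library depth and culture, so r is given as a description. For Mmp3 they were Clu (0.974), Ltbp2 (0.968) and Lbp (0.958). For Timp3 they were Lpl (0.937), Ube3c (0.933) and Myl9 (0.928), and for Timp2 they were Tnfrsf10b (0.973), Arl4c (0.965) and Amotl1 (0.961). Mmp8 was followed by Yy1 (0.954), Armcx4 (0.949) and Slx4 (0.945), Mmp2 by Noct (0.952), Cd14 (0.945) and Suox (0.941), and Mmp14 by Apc2 (0.909), Kank2 (0.905) and Hars (0.901). The highest values were 0.891 for Mmp9, with Nabp1, and 0.869 for Mmp10, with Pdgfra. Among the members themselves, Mmp3 and Timp3 ran in opposite directions (r = -0.833), while Mmp2 and Mmp10 (0.801), Mmp2 and Mmp3 (0.779), Mmp3 and Mmp10 (0.765) and Timp2 and Timp3 (0.739) ran together.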

How the data were processed

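The authors aligned the reads to mm9 with HISAT2, per the labels, and deposited raw counts per RefSeq transcript; strand setting, annotation release and the handling of shared reads are not given in the sources used here. Symbols came from RefSeq (GRCm38.p6; 41181 of 41388 transcripts), gene models from GENCODE vM1 on mm9. The members, gene lists and markers were chosen with earlier results of these data known. Each comparison was fitted on the whole table with edgeR 4.0.16 in R 4.3.3 (TMM, filterByExpr, quasi-likelihood test, Benjamini-Hochberg over all transcripts), on the 6 libraries compared, or on all 12 for the difference of effects. The script was tested on simulated data. CPM was normalised over all 12 libraries; standard errors are the log2 fold change over the square root of F; log2 CPM for correlations used a prior count of 2. DESeq2 1.42.0 was an alternative. Libraries of a group differed by more than counting error (chi-square per degree of freedom 1.93 to 12.3).

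Named were all members, other metalloproteinases or TIMPs with a mean of at least 1 CPM in a group, up to 3 called genes per related list and direction with the lowest adjusted p, the 3 transcripts most like each member, leading or absent markers, Dppa3 and the Syn genes. Some genes that this rule takes are not reported here. Ratios between members and values per 1000 CPM of fibroblast markers were chosen after seeing the data. Same-numbered libraries of KO and KO-con or Over and Over-con had correlations of -0.152 to -0.009 over 6 pairs of deviations from the group means.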

Additional observations from a re-analysis of the deposited data

How the results depend on the processing

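Fold changes of members were recomputed under 264 combinations of member, comparison and setting: 245 stayed called or not called as before, 18 lost a call, and Mmp8 in Over, not called in the report, was called the other way at -1.51 against KO-con. Of the 245, 17 changed sign, all in fold changes not called under either setting, among them Mmp9 and Mmp14 in KO and Mmp10, Mmp13 and Timp3 in Over. The count of called members in KO (5) was 3 against Over-con (Mmp2, Mmp3 and Timp3), 2 with a log2 fold change over 1 and 3 to 5 with 1 library left out. In Over (1) it was 0 with library totals, 0 with the fold threshold and 0 to 1 with 1 library left out. Between the controls (2) it was 4 with library totals (Mmp2 and Mmp3 added), 1 without a filter, 1 with at least 10 counts in every library, 1 with the fold threshold and 1 to 3 with 1 library left out. For the difference of effects (4) it was 2 with the fold threshold and 4 to 4 with 1 library left out. The causes were not tested.

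Related genes called in KO (12) numbered 7 to 15 with 1 library left out. In Over (4) they numbered 8 with DESeq2, 13 against KO-con and 0 to 10 with 1 library left out. With the replicate block, members called in Over numbered 0 and related genes 1; in KO the call of Mmp2 was lost at -0.25 and the other 4 remained. Replicate numbers did not pair the libraries, so these fits share only a number.

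Depth limits Mmp8 and Mmp10, with as few as 7 counts in a library.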
